A study of Nilaparvata lugens with 9 samples.

Results

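The miRNAs miR-1 and miR-133 of the brown planthopper *Nilaparvata lugens* were followed through early adult life. All mature sequences named exactly miR-1 or miR-133 were taken, whatever their arm or isoform suffix, which gave 5 sequences of miR-1 and 3 of miR-133. They are 8 of the 759 distinct mature sequences of the study. The study sequenced small RNA of untreated short-winged (SW) female adults, whole body, at 1 d, at 3 d and at 5 d after emergence, in 9 libraries, 3 for each phase. According to the methods, each sample was a group of insects reared on rice, and the sample labels describe a paired-end mRNA protocol instead of a small RNA protocol. The paper describes 3 libraries for the 3 phases and total RNA that was pooled, whereas the data hold 9 libraries. It is not stated whether each library of a phase was made from its own pool of insects, so the p-values measure only the spread between these libraries.

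A miRNA hairpin is cut into a duplex of a 5p and a 3p strand. One strand is usually loaded into an Argonaute protein and kept, and bases 2 to 8 of that strand, the seed, pair with target transcripts. In Drosophila, miR-1 is made in muscle and is needed for normal muscle growth. In vertebrates, miR-1 and miR-133 are cut from shared primary transcripts in heart and skeletal muscle, and miR-133 acts there on muscle cell proliferation and differentiation. In locusts, miR-133 has been described as a regulator of dopamine synthesis. A table of small RNAs holds no muscle transcript, so the tissue that made these miRNAs was not measured here, and in whole-body RNA a smaller number of cells of a type and less RNA per cell cannot be told apart.

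The 8 sequences are shown because both arms of both hairpins, and their longer forms, were listed. They are written 5′ to 3′ in DNA letters as deposited, with the seed in capitals. The first letters of a name give the species of the matching miRBase entry (tca for the beetle Tribolium castaneum, dqu for the ant Dinoponera quadriceps, dpu for the water flea Daphnia pulex and dpe for the fly Drosophila persimilis). A suffix such as 2ss13AC18TC marks 2 substitutions against that entry, and R+1, R+2 or R+4 means 1, 2 or 4 more bases at the 3′ end than that entry.
tca-miR-1-3p: tGGAATGTaaagaagtatggag
dqu-miR-1a-3p_R+1: tGGAATGTaaagaagtatggagt
dpu-miR-1_R+2: tGGAATGTaaagaagtatggagaa
tca-miR-1-5p: cCGTGCTTccttacttcccata
dqu-miR-1a-5p_R+4: cCGTGCTTccttacttcccatagtga
tca-miR-133-3p: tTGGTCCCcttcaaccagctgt
dpe-miR-133_R+2: tTGGTCCCcttcaaccagctgttt
dqu-miR-133-5p_2ss13AC18TC: aGCTGGTTgaacccgggccaaat

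The 8 sequences carried 4 seeds, one for each arm of each miRNA, and none was shared between miR-1 and miR-133. Within an arm, the sequences differed only at the 3′ end. The 3 members with the seed GGAATGT had the same first 22 bases, those of tca-miR-1-3p. The seed GGAATGT occurred in 4 sequences of the whole table, and the one that is not a member, the predicted candidate PC-3p-142595_45, also began with the 22 bases of tca-miR-1-3p. It was noticed after the values were seen.

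The 2 hairpins were listed on the minus strand of the same scaffold, NW_019105564.1. The hairpin of miR-1 was listed at start 1101511 with 85 nt and a folding energy of -36.8 kcal/mol, and that of miR-133 at start 878237 with 95 nt and -43.0 kcal/mol. The listed starts were 223.274 kb apart. The scaffold carried 9 of the listed sequences, whereas the median scaffold carried 1. Of the 9, 6 were miR-1 or miR-133 by name, and the candidate PC-3p-142595_45 was another. For the genome, the build was not given in the sources used here. No end is given because a second, longer miR-1 hairpin was listed at start 1101440, and whether either hairpin lies in a gene was not analysed here.

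The longer 3p sequences did not match the hairpins placed on the scaffold past base 22. For dpu-miR-1_R+2 and dpe-miR-133_R+2 no genome position was listed. Positions are counted from the 5′ end of the mature sequence, with the base of the hairpin first and the sequenced base last. dqu-miR-1a-3p_R+1 differed from the hairpin by C23T, dpu-miR-1_R+2 by C23A and T24A, and dpe-miR-133_R+2 by A23T and G24T. Of the 3 longer forms of miR-1-3p and the 1 longer form of miR-133-3p in the table, 0 carried the hairpin base at position 23. Mismatched sequences occurred in other miRNAs too. Among other miRNAs with a listed hairpin, sequences unlike that hairpin at any position held 1.56 to 3.04% of the reads of a library. The 5p sequences, dqu-miR-1a-5p_R+4 with its 26 bases included, matched their hairpins at every base.

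The most abundant sequence was tca-miR-1-3p, which ranked between 3 and 5 in every library and 4 over all reads. It had 1031521 reads over the 9 libraries, 5.33% of all reads on listed miRNAs and 98.0% of the miR-1 reads. The most abundant miR-133 sequence was tca-miR-133-3p, with 49084 reads, 95.9% of the miR-133 reads and a rank between 34 and 43. The shallowest library, 1 d replicate 2, had 972506 reads on listed miRNAs and the deepest, 3 d replicate 3, had 3184052, and the libraries of a phase correlated with r between 0.887 and 0.973 across sequences, which are not independent replicates.

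The miR-1 sequences together took a steady share of each library. They held 5.52, 5.26 and 5.24% of the reads at 1 d, 5.58, 5.23 and 6.04% at 3 d, and 4.51, 6.27 and 5.01% at 5 d. The miR-133 sequences held 0.246, 0.294 and 0.210% at 1 d, 0.391, 0.210 and 0.209% at 3 d, and 0.428, 0.249 and 0.212% at 5 d. The highest miR-133 shares were those of 5 d replicate 1 and 3 d replicate 1, and the 3 phases overlapped for both miRNAs. The 95% Wilson intervals were at most 0.0887 percentage points wide for miR-1 and 0.0215 for miR-133, and they cover counting error only, since reads amplified without molecular identifiers are not independent molecules. The miR-1 reads outnumbered the miR-133 reads 10.5 to 28.9 times, with a median of 23.7, and the lowest ratio was in 5 d replicate 1.

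Levels are given as CPM, read counts scaled to one common library total, with TMM factors, which assume that most miRNAs have the same level in all libraries. A read count of a miRNA does not grow with its length. The 1 sequence that was left out by the filter on low counts was dqu-miR-1a-5p_R+4, which had 5 reads, all of them in 3 d replicate 3, and the other 7 sequences were tested among 341. In order of mean level over the 9 libraries, tca-miR-1-3p (53245 CPM), tca-miR-133-3p (2604 CPM), dqu-miR-1a-3p_R+1 (937 CPM) and dqu-miR-133-5p_2ss13AC18TC (104 CPM) had ranges over the libraries that did not overlap. The next in order, tca-miR-1-5p (60.9 CPM) and dpu-miR-1_R+2 (54.3 CPM), overlapped with each other and with dqu-miR-133-5p_2ss13AC18TC, and dpe-miR-133_R+2 (3.35 CPM) lay below them all.

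The level of tca-miR-1-3p, the strand with the seed known from other animals, varied little between libraries. It was 56597, 61905 and 55818 CPM at 1 d, 47091, 51288 and 56419 CPM at 3 d, and 42420, 59035 and 48628 CPM at 5 d. The lowest library was 5 d replicate 1 and the highest 1 d replicate 2, and each pair of phases overlapped. The log2 fold change was -0.17 (SE 0.17) at 3 d against 1 d, -0.22 (SE 0.17) at 5 d against 1 d and -0.04 at 5 d against 3 d, and the adjusted p of edgeR was 1.00, 0.732 and 0.992. Its SD within a phase was 0.164 on the log2 scale, against a median of 0.700 over the 341 tested sequences, of which 2.05% had a smaller one. Of the 54 sequences with a mean of at least 1000 CPM, 4 had a smaller SD than tca-miR-1-3p.

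The opposite strand, tca-miR-1-5p, was rare. It had 78.3, 50.4 and 76.8 CPM at 1 d, 77.4, 38.8 and 56.1 CPM at 3 d, and 75.0, 53.9 and 41.5 CPM at 5 d. The ranges of the phases overlapped, and the log2 fold change was -0.26 at 3 d against 1 d, -0.27 at 5 d against 1 d and -0.01 at 5 d against 3 d.

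The form of miR-1-3p with 1 more base, dqu-miR-1a-3p_R+1, had 1431, 917 and 1051 CPM at 1 d, 546, 1047 and 1182 CPM at 3 d, and 624, 656 and 984 CPM at 5 d. Its lowest library was 3 d replicate 1 and its highest 1 d replicate 1, and the phases overlapped. The mean was 755 ± 199 CPM at 5 d and 1133 ± 267 CPM at 1 d (SD, n = 3 each), a log2 fold change of -0.59 (SE 0.35, edgeR adjusted p = 0.614). The form with 2 more bases, dpu-miR-1_R+2, had 58.4, 48.0 and 77.6 CPM at 1 d, 11.7, 77.0 and 83.2 CPM at 3 d, and 21.5, 51.8 and 60.1 CPM at 5 d. Both of its lowest values were in replicate 1, of 3 d and of 5 d, and its SD within a phase, 1.02 on the log2 scale, was the widest of the miR-1 sequences tested.

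The level of tca-miR-133-3p, the muscle strand of miR-133 in vertebrates, was 2386, 3384 and 2131 CPM at 1 d, 3283, 1995 and 1892 CPM at 3 d, and 4009, 2330 and 2023 CPM at 5 d. In each phase 1 library stood above the other two, namely 1 d replicate 2, 3 d replicate 1 and 5 d replicate 1. The log2 fold change was -0.14 at 3 d against 1 d, 0.08 (SE 0.35, edgeR adjusted p = 0.986) at 5 d against 1 d and 0.22 at 5 d against 3 d. Its SD within a phase was 0.441, and 33 of the 54 sequences above 1000 CPM had a smaller one. The longer form dpe-miR-133_R+2 had 72 reads in all. Of these, 8, 0 and 19 came from 1 d, 7, 14 and 17 from 3 d, and 7, 0 and 0 from 5 d. Its 5 d libraries were all below the 3 d ones on the CPM scale, with a log2 fold change of -2.52 (SE 1.61) and an edgeR adjusted p of 0.992. Without 5 d replicate 1, the one 5 d library with reads, the fitted value was -6.55, and it was -0.85 with limma and a pseudocount of 10.

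The sequence with the clearest difference between phases was the opposite strand of miR-133, dqu-miR-133-5p_2ss13AC18TC. It had 206, 132 and 141 CPM at 1 d, 57.9, 102 and 99.4 CPM at 3 d, and 78.4, 42.2 and 76.8 CPM at 5 d. All 3 d and all 5 d libraries lay below all 1 d libraries, as was so for 3.81% of the tested sequences at 3 d and 7.62% at 5 d, and the 3 d and 5 d libraries overlapped. The means were 86.3 ± 24.7 CPM at 3 d and 65.8 ± 20.5 CPM at 5 d, against 159 ± 40.3 CPM at 1 d (SD, n = 3 each).

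The difference of dqu-miR-133-5p_2ss13AC18TC did not pass the test after adjustment. The log2 fold change was -0.88 (SE 0.40) at 3 d against 1 d with an edgeR p of 0.0513 and an adjusted p of 0.572. It was -1.28 (SE 0.40) at 5 d against 1 d with an edgeR p of 0.0103 and an adjusted p of 0.252. Over the 3 phases the edgeR p was 0.0238 with an adjusted p of 0.477, and the exact permutation p was 0.0214. The exact 2-sided permutation p was 0.1 against 1 d at both later phases, which is the smallest that 3 libraries against 3 allow. Leaving out 1 library at a time kept the 5 d vs. 1 d change between -1.50 and -1.07, with an edgeR adjusted p between 0.180 and 0.612. With DESeq2 the change was -1.23 with an adjusted p of 0.0521, the lowest adjusted p among the alternatives, and with limma and a pseudocount of 1 it was -1.18 with an adjusted p of 0.400.

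**Figure D1:**
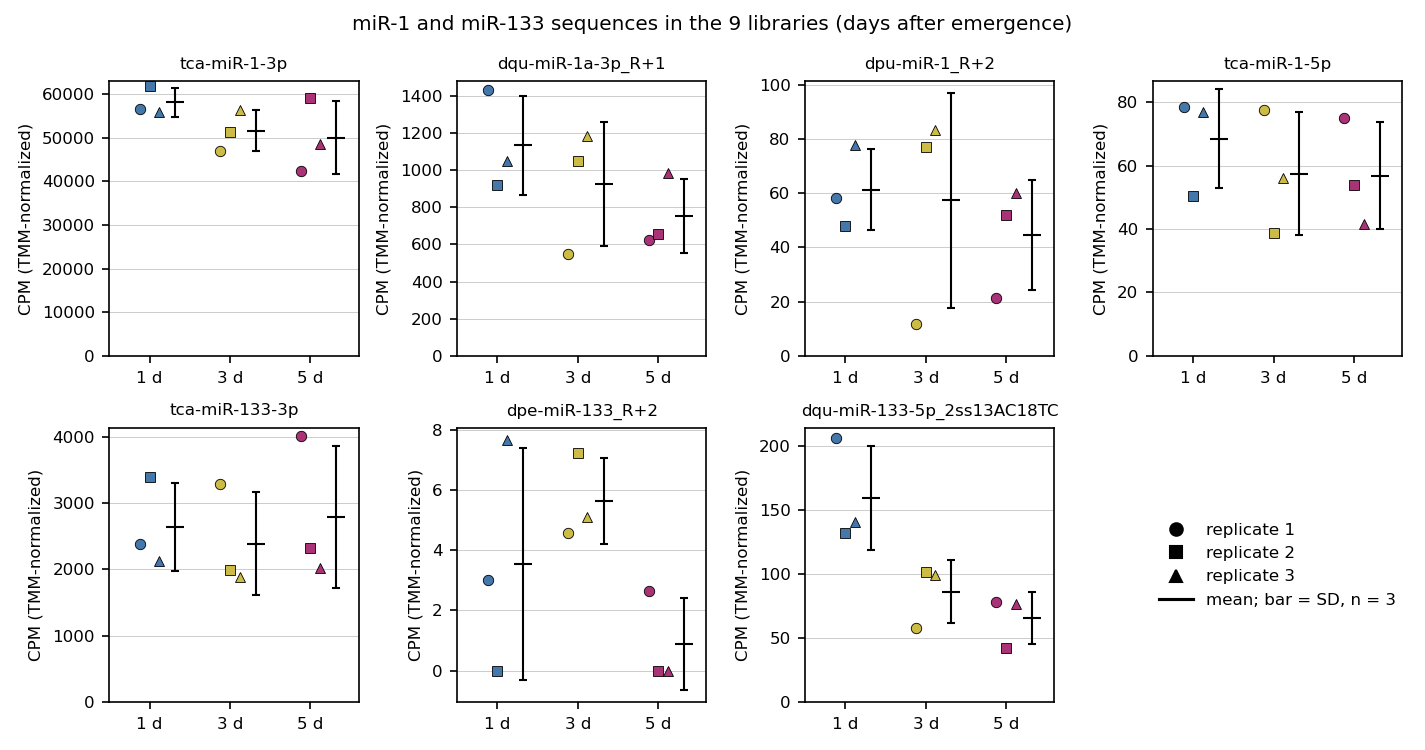
TMM-normalized CPM (linear axes that differ between panels) of the 7 tested sequences in each library at 1 d, at 3 d and at 5 d. Points are libraries, shaped by replicate, and bars are the mean and SD of 3 libraries. In the panel of dqu-miR-133-5p_2ss13AC18TC the 3 d and 5 d points all lie below the 1 d points, while those of tca-miR-1-3p overlap.

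The phases were then compared over all 7 tested sequences. None was called at an adjusted p below 0.05 by edgeR, and none by DESeq2 or limma. At 3 d against 1 d, 0 of 7 were called and 0% of the 341 tested sequences were. At 5 d against 1 d, 0 of 7 were called, against 1.47% of the 341. At 5 d against 3 d, 0 of 7 were called and 0% of the 341 were. Over the 3 phases, 0 of 7 were called, against 1.17%.

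At an unadjusted edgeR p below 0.05 the counts of members were 0 of 7 at 3 d against 1 d, where 8.5% of the 341 passed, and 1 of 7 at 5 d against 1 d, where 11.4% passed. They were 0 of 7 at 5 d against 3 d, where 2.35% passed, and 1 of 7 over the 3 phases, where 8.21% passed. The 1 member in both cases was dqu-miR-133-5p_2ss13AC18TC. It was also the 1 member whose later libraries all lay below the earlier ones at 3 d against 1 d, as 3.81% of the tested sequences did, and at 5 d against 1 d, as 7.62% did. For 5 d against 3 d that member was dpe-miR-133_R+2, and 2.64% of the tested sequences did the same. The opposite order, all later libraries above all earlier ones, was found in 0 of 7 members and in 6.45%, 10.6% and 3.23% of the tested sequences for 3 d vs. 1 d, for 5 d vs. 1 d and for 5 d vs. 3 d.

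The test of the study compares mean normalized counts, takes an unadjusted p below 0.05 and a limit on the fold change, and leaves out levels under 10 RPM (reads scaled to a common library total). It was run first on all 759 sequences without that exclusion. At 3 d against 1 d it called dqu-miR-133-5p_2ss13AC18TC, 1 member, and 3.82% of the 759 sequences, or 0 members and 2.24% with the limit on the fold change. At 5 d against 1 d it called the same member and 4.22% of the sequences, or that member and 2.9% with the fold limit. At 5 d against 3 d it called dpe-miR-133_R+2 and 2.24%, or the same member and 1.32% with the fold limit. Sequences with a mean under 10 RPM in both phases were then also left out, which removed dpe-miR-133_R+2, a step added after the data had been seen and one reading of the exclusion, whose details were not stated. With that and the fold limit, 0 members and 3.45% of 261 sequences were called at 3 d against 1 d, dqu-miR-133-5p_2ss13AC18TC and 6.27% of 255 at 5 d against 1 d, and 0 members and 2.39% of 251 at 5 d against 3 d. None of these runs gave the counts of called miRNAs that the study reported.

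The log2 fold changes of the members lay mostly below 0. They were below 0 in 6 of 7 members at 3 d against 1 d, where 44.9% of the 341 were, in 6 of 7 at 5 d against 1 d, where 46% were, and in 6 of 7 at 5 d against 3 d, where 54.5% were. The exception was dpe-miR-133_R+2 at 3 d against 1 d and tca-miR-133-3p in both other comparisons. The median over the members was -0.17, -0.47 and -0.29 for these comparisons in the same order, against 0.06, 0.05 and -0.04 over all tested sequences. These sign counts changed with the scaling. Between 5 d and 3 d, 4 of 7 were below 0 with RLE factors, with the authors' factors and with DESeq2, and 3 of 7 with limma. At 3 d against 1 d, 4 of 7 were below 0 with upper-quartile factors and 3 of 7 with library totals. The comparisons share their libraries, 3 of the members share the first bases of miR-1-3p, and with library totals the 3 d vs. 1 d changes of tca-miR-1-3p, tca-miR-133-3p and dpu-miR-1_R+2 were 0.070, 0.14 and 0.087.

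**Figure D2:**
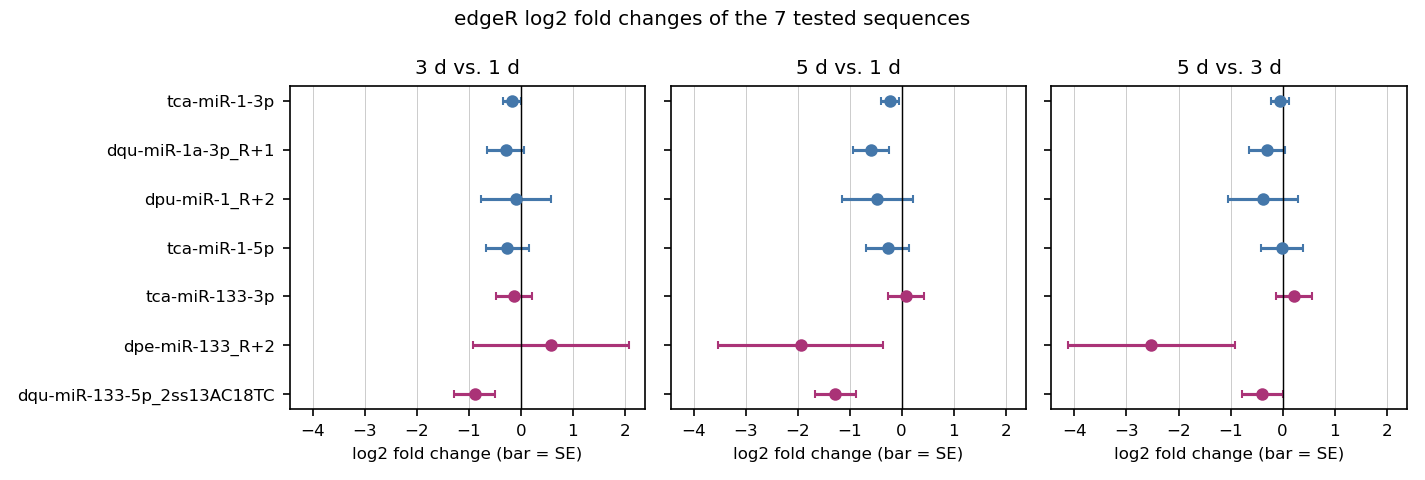
Log2 fold change of edgeR, later over earlier phase, for the 7 tested sequences, with 1 panel per pair of phases and bars of 1 SE. The points of tca-miR-1-3p lie within 0.22 of 0, and that of dqu-miR-133-5p_2ss13AC18TC at 5 d against 1 d lies at -1.28.

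The 2 strands of each hairpin were set against each other within a library, which needs no scaling. The 3p strand was the more abundant in both miRNAs. For miR-1 the ratio of 3p to 5p reads was 723, 1228 and 727 at 1 d, 609, 1323 and 1005 at 3 d, and 566, 1096 and 1172 at 5 d, with 41 to 208 reads of the 5p strand per library. The mean log2 ratio was 9.75 ± 0.43, 9.86 ± 0.57 and 9.81 ± 0.58 at 1 d, at 3 d and at 5 d (SD, n = 3 each), and the exact permutation p over the 3 phases was 0.979. Of 13 other known hairpins with both arms tested, 0 had a mean log2 ratio of larger size than the 9.80 of miR-1, and their median size was 3.55. The largest among them were 9.56 for miR-276, close to that of miR-1, and 8.02 for miR-184. A hairpin whose rarer strand fell under the filter on low counts was not among the 13. Ratios as large as that of miR-1 in less abundant hairpins would therefore not be seen.

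The ratio of miR-133 was lower and varied more. It was 11.6, 25.7 and 15.1 at 1 d, 56.7, 19.6 and 19.0 at 3 d, and 51.1, 55.2 and 26.3 at 5 d. The 5 d libraries were all above the 1 d ones, by a narrow margin between 5 d replicate 3 and 1 d replicate 2, and the 3 d libraries overlapped both. The share of the 5p strand was lowest in 3 d replicate 1 with 1.73% (95% Wilson interval 1.41 to 2.13%) and highest in 1 d replicate 1 with 7.93% (7.32 to 8.59%).

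The mean log2 ratio of miR-133 was 4.04 ± 0.58, 4.79 ± 0.89 and 5.39 ± 0.59 at 1 d, at 3 d and at 5 d (SD, n = 3 each), with geometric means of 16.5, 27.6 and 41.9. The exact permutation p over the 3 phases was 0.136, where the smallest possible is 0.00357. The difference was 1.34 at 5 d against 1 d (exact permutation p = 0.1), 0.74 at 3 d against 1 d (exact permutation p = 0.4) and 0.60 at 5 d against 3 d (exact permutation p = 0.4). Of the 13 other hairpins, 1 (7.69%) had all its 5 d libraries above those of 1 d, and 1 had a difference as large. The median difference of these 13 at 5 d against 1 d was 0.38, in the same direction as that of miR-133.

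**Figure D3:**
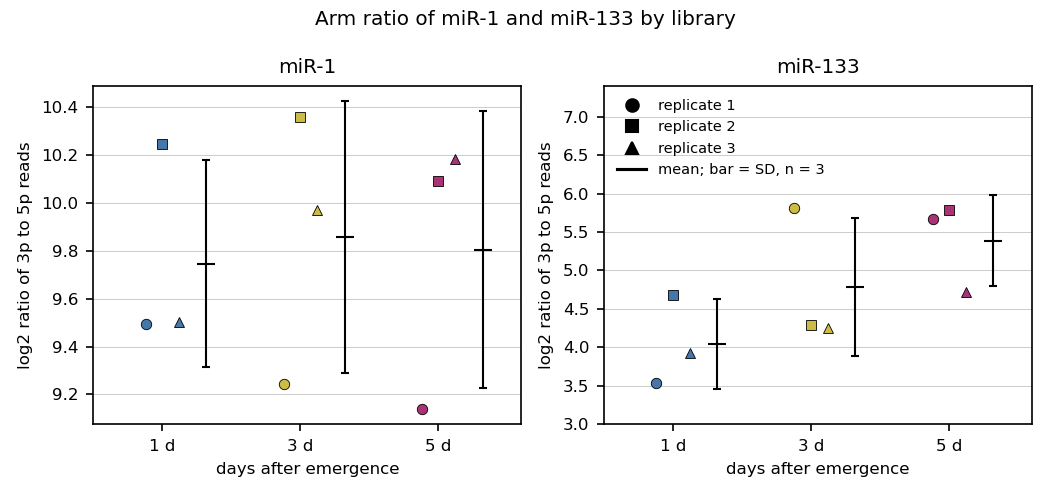
Log2 ratio of 3p to 5p reads of miR-1 (left) and miR-133 (right) in each library at 1 d, at 3 d and at 5 d, on axes that do not start at 0. Points are libraries and bars the mean and SD of 3 libraries. The phases overlap for miR-1 with means near 9.8, and for miR-133 the 5 d points lie above the 1 d points.

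The longer 3′ end of miR-1-3p was a small and variable share of its reads, and this measure was chosen after the values had been seen. The forms with 1 and 2 more bases made up 2.56, 1.54 and 1.98% of the miR-1-3p reads at 1 d, 1.17, 2.14 and 2.19% at 3 d, and 1.50, 1.18 and 2.10% at 5 d. The phases overlapped, and in each phase the Wilson intervals of the lowest and the highest library did not overlap. The mean share was 2.03 ± 0.52, 1.84 ± 0.58 and 1.59 ± 0.47% at 1 d, at 3 d and at 5 d (SD, n = 3 each), with an exact permutation p of 0.614 over the 3 phases. The form with 2 more bases varied most, with 0.0246% in 3 d replicate 1 and 0.147% in 3 d replicate 2 as its lowest and highest share. In the same libraries, reads of 23 nt or longer were 17.4 to 42.9% of the reads of other miRNAs, and the part of that read length in the shares was not tested.

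**Figure D4:**
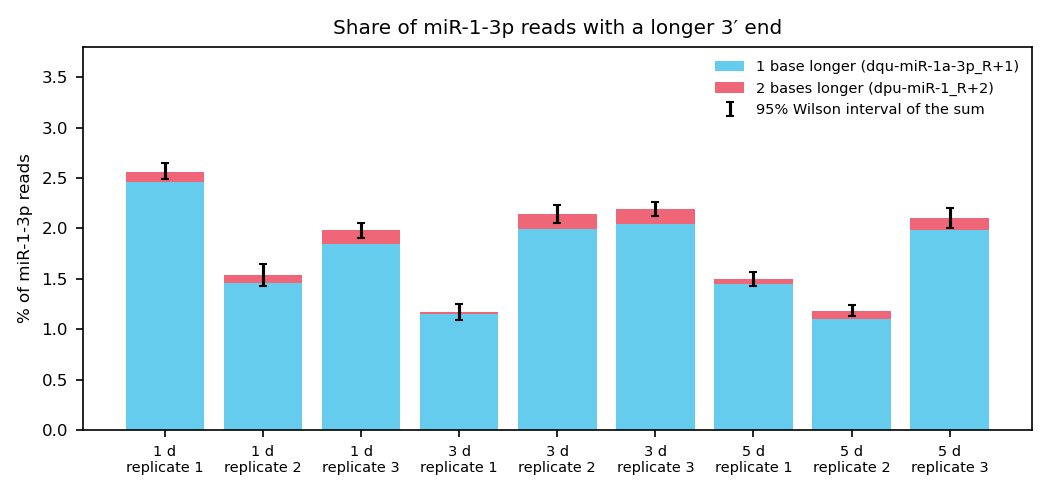
Percentage of miR-1-3p reads in each library that carried 1 more base (blue) or 2 more bases (red) at the 3′ end, stacked, with the 95% Wilson interval of their sum. The sums lie between 1.17% in 3 d replicate 1 and 2.56% in 1 d replicate 1.

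The members did not move as one group across the 9 libraries. Correlations are Pearson's r of log2(CPM + 1), given as descriptions over libraries that share their phase and depth. tca-miR-1-3p and tca-miR-133-3p had r = -0.38, and the 2 strands of a hairpin had r = -0.17 for miR-1 and -0.14 for miR-133. The closest pairs were the 2 longer forms of miR-1-3p, dqu-miR-1a-3p_R+1 and dpu-miR-1_R+2, with r = 0.81, and dqu-miR-1a-3p_R+1 with dqu-miR-133-5p_2ss13AC18TC, also 0.81. The most opposed pair was tca-miR-133-3p and dpu-miR-1_R+2, with r = -0.81. In 3 d replicate 1 and 5 d replicate 1, tca-miR-133-3p was high in its phase and dpu-miR-1_R+2 low.

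Among 337 tested sequences outside miR-1, the one most like tca-miR-1-3p was tca-miR-279b-3p, with r = 0.82. The next were the predicted candidates PC-5p-53297_149 (0.79), PC-3p-44355_182 (0.78), PC-3p-57388_137 (0.76) and PC-3p-3460_1676 (0.75). For tca-miR-133-3p, among 338 sequences, they were PC-5p-170076_35 (0.95), PC-5p-95501_75 (0.94), tca-miR-276-3p_R-2 (0.90), PC-3p-27787_292 (0.89) and PC-5p-1263_4489 (0.89). The 5 most like tca-miR-133-3p were 18 to 20 nt long, shorter than its 22 nt, whereas those most like tca-miR-1-3p were 22 or 23 nt long.

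Other miRNAs with roles in muscle, the neuromuscular junction or neurons of Drosophila were set beside them, namely miR-8, miR-92, miR-100, miR-124, miR-125 and let-7. Of their 25 sequences 18 were tested, and 0 were called higher and 0 lower in every pair of phases. At an unadjusted edgeR p below 0.05 there were 7 at 3 d against 1 d, 7 at 5 d against 1 d and 0 at 5 d against 3 d, where 8.5%, 11.4% and 2.35% of the 341 passed. The median log2 fold change of the 18 was -0.55, -0.61 and -0.02, beside 0.06, 0.05 and -0.04 over all tested sequences. Of these 18, 5 had at least 50% of their summed CPM in 1 d replicate 2, as had 9 of all 341 and 0 of the miR-1 and miR-133 sequences, whose highest share there was 14.4%. Without 1 d replicate 2 the median of the list was 0.10 at 3 d and -0.16 at 5 d against 1 d, with 0 and 1 sequences at an unadjusted edgeR p below 0.05. DESeq2 called 1 sequence of the list lower at 3 d against 1 d, of 3 among the 341, and 1 at 5 d against 1 d, of 5, and limma called 0 in each. With edgeR and no filter on low counts 7, 8 and 2 of the 25 were called lower at 3 d against 1 d, at 5 d against 1 d and at 5 d against 3 d, beside 17, 21 and 2 of all 759.

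The most abundant sequence of each family of the list differed in its likeness to tca-miR-133-3p. Pearson's r was 0.88 for aga-miR-124_R-2, the neuronal miRNA, 0.63 for tca-miR-92a-3p_L+1R+1_1ss10AT, 0.51 for tca-let-7-5p_R+1, 0.35 for tca-miR-100-5p_R-2, 0.19 for tca-miR-125-5p_R-1_1ss16CT and -0.67 for tca-miR-8-3p. With tca-miR-1-3p they lay between -0.55 for aga-miR-124_R-2 and 0.47 for tca-let-7-5p_R+1. aga-miR-124_R-2 was singled out after these values were seen, and its levels were 863, 715 and 463 CPM at 1 d, 1444, 406 and 402 CPM at 3 d, and 1721, 740 and 545 CPM at 5 d. The highest were in 5 d replicate 1 and 3 d replicate 1, the libraries that were also highest in their phase for tca-miR-133-3p. At 1 d, aga-miR-124_R-2 was highest in replicate 1 but tca-miR-133-3p in replicate 2. The most abundant let-7 sequence, tca-let-7-5p_R+1, which in Drosophila is expressed with miR-100 and miR-125 and acts on adult neuromuscular remodelling, had a log2 fold change of -1.45 at 5 d against 1 d (edgeR adjusted p = 0.275). That of tca-miR-8-3p, which acts in the fat body and at the neuromuscular junction of Drosophila, was 0.41 (edgeR adjusted p = 0.672). It was -1.27 for tca-miR-125-5p_R-1_1ss16CT and -0.68 for tca-miR-100-5p_R-2 (edgeR adjusted p = 0.408 for each), -1.01 for tca-miR-92a-3p_L+1R+1_1ss10AT (edgeR adjusted p = 0.478) and 0.56 for aga-miR-124_R-2 (edgeR adjusted p = 0.845).

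**Figure D5:**
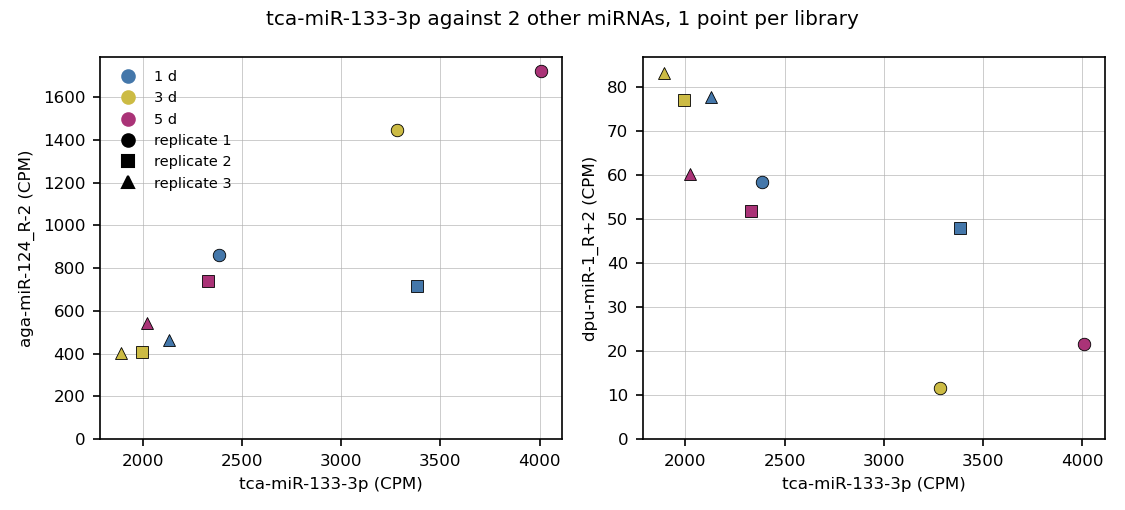
CPM of tca-miR-133-3p (horizontal, not starting at 0) against CPM of aga-miR-124_R-2 (left) and dpu-miR-1_R+2 (right), with 1 point per library, coloured by phase and shaped by replicate. 5 d replicate 1 lies at 4009 CPM of tca-miR-133-3p with 1721 CPM of aga-miR-124_R-2 and 21.5 CPM of dpu-miR-1_R+2.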

How the data were processed

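Reads had been cleaned by the authors in ACGT101-miR and annotated against miRBase and the *N. lugens* genome, with hairpins from RNAfold. A version of the program or a build of the genome was not given in the sources used here. Deposited raw columns hold estimated counts, of which some are not whole (224 sequences), and they were rounded. The deposited normalized columns hold a signal, the raw reads of a library times one correction factor between 0.566 and 2.49 that the authors set. Listed lengths, hairpin starts and folding energies were used as deposited.

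Entries with one mature sequence were counted once (905 entries, 759 sequences). Counts were tested with edgeR 4.0.16 in R 4.3.3 (legacy quasi-likelihood F-test, TMM, default filter by phase, all 9 libraries, Benjamini-Hochberg over 341 sequences). The SE is the log2 fold change divided by the square root of F. Exact permutation tests were 2-sided between pairs of phases and took the spread of the phase means over the 3 phases. For single sequences they used CPM between pairs of phases and log2(CPM + 1) over the 3 phases. For arm ratios they used log2 ratios with 0.5 reads added to each arm, and for the longer 3′ ends percentages. Over the 3 phases they used all 1680 groupings. The script was run on simulated data with less spread than these libraries and larger changes than the main fits gave for the members. That run therefore does not measure its power for these data. Named were all members, the 5 sequences most alike to the most abundant one of each miRNA, and the most abundant of each listed neuromuscular family. The members and lists were chosen with earlier results of these data known. Alternatives were DESeq2 1.42.0, limma 3.58.1, other scalings and filters, the study's own test, the replicate block and leaving out single libraries. Each library had between 972506 and 3184052 reads. Libraries of a phase differed by more than sampling noise (chi-square per degree of freedom 81.3 to 854), so none was counted as a duplicate.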

Additional observations from a re-analysis of the deposited data

How the results depend on the processing

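The count of 0 members called held with edgeR at an adjusted p under every scaling, filter and estimator tried, with DESeq2 and limma, and without any 1 library (0 to 0). With the study's own test, unadjusted, 1 was called at each pair of phases, dqu-miR-133-5p_2ss13AC18TC at 3 d and at 5 d against 1 d (log2 fold change -0.90 and -1.16) and dpe-miR-133_R+2 at 5 d against 3 d (-2.61). With its fold limit 1 was called at 5 d against 1 d and 1 at 5 d against 3 d, with a minimum of 10 RPM added (after seeing the data) 1 at 5 d against 1 d, and by an unadjusted edgeR p 1 at 5 d against 1 d and 1 over the phases. The cause was not tested.

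Small fold changes reversed. At 5 d against 3 d, tca-miR-1-5p and tca-miR-1-3p were at 0.044 and 0.013 with RLE factors, 0.13 and 0.097 with the authors' factors, 0.051 and 0.013 with DESeq2, 0.12 and 0.097 with the study's own test (with or without fold limit and minimum), 0.073 and 0.028 with those libraries only, and 0.048 and 0.0022 with distinct names. With limma and pseudocounts of 1, 0.5 and 10, tca-miR-1-5p was at 0.13, 0.14 and 0.12, tca-miR-1-3p at 0.084 each time and dpu-miR-1_R+2 at 0.075, 0.079 and 0.019. A newer edgeR estimator, added after seeing the data, put tca-miR-1-5p at 0.025. At 3 d against 1 d, tca-miR-133-3p and dpu-miR-1_R+2 were at 0.026 and 0.0070 with upper-quartile factors and 0.14 and 0.087 with library totals, where tca-miR-1-3p was at 0.070. The cause was not tested. Upper-quartile factors moved the median of all sequences by 0.16 at 3 d and 0.14 at 5 d against 1 d, library totals by 0.25 and 0.18, and the authors' factors by 0.11 at 5 d against 1 d and 0.14 at 5 d against 3 d.

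Without 1 library at a time, tca-miR-133-3p ranged from -0.45 to 0.090 at 3 d against 1 d, -0.35 to 0.27 at 5 d against 1 d and -0.10 to 0.49 at 5 d against 3 d. dpu-miR-1_R+2 ranged from -0.47 to 0.39 at 3 d against 1 d and from -0.84 to 0.0023 at 5 d against 3 d, where tca-miR-1-3p ranged from -0.15 to 0.084 and tca-miR-1-5p from -0.28 to 0.23. The log2 arm ratio difference of 5 d against 1 d ranged from -0.13 to 0.39 for miR-1 and 1.09 to 1.68 for miR-133.

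Between phases, the deviations of libraries from their phase means correlated at -0.39 to 0.42 for the same replicate number. For different numbers the range was -0.51 to 0.50. Whether the numbers pair the libraries cannot be told from these ranges. With the replicate number as a block, 0 members were called and tca-miR-1-5p at 5 d against 3 d was at 0.016. Over all sequences, edgeR called 0, 5 and 0 for 3 d vs. 1 d, for 5 d vs. 1 d and for 5 d vs. 3 d, and 4 over the phases, against 0, 4, 0 and 0 with the block, 19, 26, 2 and 27 with no filter, 6, 13, 2 and 12 with DESeq2, and 1, 3, 0 and 1 with limma.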

Other observations

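The predicted candidate PC-3p-142595_45, which begins with the bases of tca-miR-1-3p and is not a member by name, had 45 reads over the 9 libraries. It is 25 nt long, with a base unlike its hairpin at C23A, and its listed start, 1101438, is next to that of the longer miR-1 hairpin. Its level was 0, 0 and 7.24 CPM at 1 d, 0, 5.17 and 2.40 CPM at 3 d, and 0, 0 and 5.58 CPM at 5 d. The libraries with reads were 1 d replicate 3, 3 d replicates 2 and 3, and 5 d replicate 3, and it was singled out after its values were seen.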
